A study of Oryza sativa with 4 samples.

Results

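The genes described here were silent or nearly so in rice spikelets at anther stage 9 and were switched on at stage 12 to a similar level in OsCPK21-RNAi and ZH11 plants. They were chosen by their signals on all 4 arrays of the series. A gene was taken when its signal was at most 71 on both stage 9 arrays and at least 284 on both stage 12 arrays, with the 2 stage 12 signals within 2-fold of each other. The signal of 71 is called the floor and that of 284 the upper level. The rule picked 162 of 17905 genes (0.905%), each read by the brightest of its probe sets, the groups of short probes that measure 1 transcript. Because all 4 arrays chose the genes, the stage change and the closeness of the genotypes are descriptions of the choice and were not tested.

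The series compared spikelets of plants carrying an RNA interference construct against OsCPK21, which encodes a calcium-dependent protein kinase, with spikelets of ZH11, the rice cultivar that is the genetic background of both. The groups were RNAi at stage 12, ZH11 at stage 12, RNAi at stage 9 and ZH11 at stage 9, each 1 Affymetrix array, from field-grown plants that received no treatment. For the RNAi plants 3 lines are named, but no source used here says if 1 array holds RNA of 1 line or of all, or which promoter drives the construct. With 1 array a group there was no spread between replicates, no standard deviation and no p-value, and precision is limited by how few arrays there are. The genotype characteristic of every sample names the genotype opposite to that in its title, description and source name, and the titles are followed here. The 162 genes are the same under either reading, since the rule treats the genotypes alike, but every ratio between genotypes would turn.

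OsCPK21 itself had a signal of 17.6 in RNAi spikelets at stage 12, against 2719 in ZH11 spikelets at stage 12, and 206 in RNAi at stage 9, against 1940 in ZH11 at stage 9, so it was low on both arrays titled RNAi. The 3-prime to 5-prime ratio of the actin control probe sets, a measure of RNA integrity, was 8.53 in RNAi and 10.3 in ZH11 at stage 12, against 4.20 in RNAi and 3.89 in ZH11 at stage 9. The same ratio for Gapdh was 3.48 on both stage 12 arrays, against 2.50 in RNAi and 1.96 in ZH11 at stage 9. RNA quality thus moved with stage, and its part in the stage change was not tested. Marker lists of spikelet tissues moved as well. The summed signal of 11 late pollen markers was 686 in RNAi at stage 12, with 6 of them at or below the floor, against 61697 in ZH11 at stage 12, and it was 573 in RNAi and 586 in ZH11 at stage 9. Of 9 tapetum markers, 3 were at or below the floor on each stage 12 array, and their sum was 3371 in RNAi and 1623 in ZH11 at stage 12, against 29354 in RNAi and 48993 in ZH11 at stage 9. The stage 12 direction of that sum rested on RAFTIN1 (2149 in RNAi and 199 in ZH11). Leaving RAFTIN1 out, which was done after the values were seen, gave sums of 1222 in RNAi and 1424 in ZH11 at stage 12. Of the 8 other tapetum markers, 5 were higher in RNAi at stage 12, among them CYP703A3 with both signals under the floor. For 5 green tissue markers the sums were 12047 in RNAi and 10057 in ZH11 at stage 12, against 2119 in RNAi and 2831 in ZH11 at stage 9, and none was at or below the floor on any array. Floral organ identity genes, 6 in number, summed to 33264 in RNAi and 32159 in ZH11 at stage 12, against 20683 in RNAi and 26176 in ZH11 at stage 9. None of these markers was among the 162 genes, and the part of tissue composition in their signals was not tested. In spikelets, more cells of a type and more RNA per cell cannot be told apart.

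Several of the named genes belong to chemical and enzymatic defence. Rice makes labdane-related diterpenes, the momilactones and phytocassanes, which act as phytoalexins, that is, antimicrobial compounds made on attack. Their synthesis starts from geranylgeranyl diphosphate, which copalyl diphosphate synthases (CPS) and then kaurene synthase-like enzymes (KSL) cyclise and cytochromes P450 oxidise. The genes lie in blocks on chromosomes 4 and 2. Chitinases cut chitin, the polymer of fungal cell walls, and germin-like proteins are cell wall proteins linked to resistance. The kinase is studied for its part in pollen development, and anthers hold young microspores at stage 9 and pollen near maturity at stage 12.

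At stage 9, 2545 genes (14.2% of all) had signals of 71 or less in both genotypes. At stage 12, 260 of these reached the upper level in RNAi (1.45% of all genes) and 497 did so in ZH11 (2.78%). The 162 genes were 62.3% of those switched on in RNAi and 32.6% of those switched on in ZH11. Among the 497, 300 were over 2-fold lower in RNAi (1.68% of all genes), 222 of them at or below the floor there, while 22 were over 2-fold higher and 13 were within 2-fold but under the upper level in RNAi. Among the 260, 59 were over 2-fold higher than in ZH11 (0.33% of all genes), 28 were within 2-fold but under the upper level in ZH11, and 11 were over 2-fold lower. Of the 195 genes at the upper level in both genotypes, 162 were within the 2-fold window. For scale, 13.4% of all genes were at least 2-fold higher at stage 12 than at stage 9 in RNAi and 15.7% in ZH11. Between genotypes at stage 12, 2.55% of all genes were at least 2-fold higher and 6.28% at least 2-fold lower in RNAi.

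**Figure D1:**
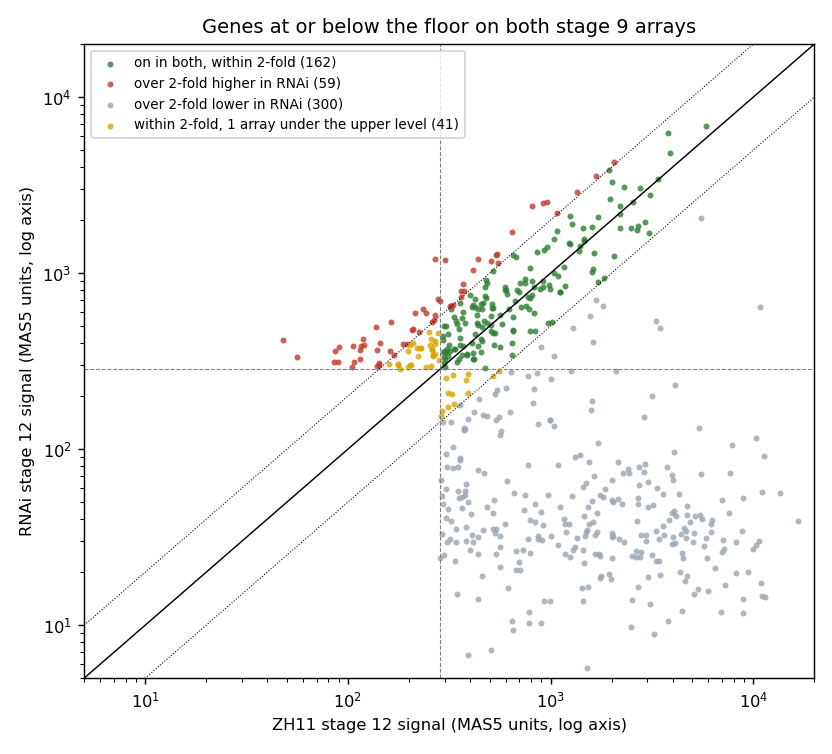
Stage 12 signals of genes that were off at stage 9 in both genotypes, with RNAi on the vertical and ZH11 on the horizontal log axis in MAS5 signal units. The solid line marks equal signals, dotted lines 2-fold and dashed lines the upper level of 284. The 162 green points lie along the line of equality, and the 300 grey points spread below it, 222 of them at or below the floor of 71 in RNAi.

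The shared genes were of moderate brightness. Their stage 12 signals ran from 288 to 6870 in RNAi with a median of 665, and from 294 to 5866 in ZH11 with a median of 608. The 300 genes over 2-fold lower in RNAi had a median of 38.8 in RNAi and 1556 in ZH11 at stage 12. In ZH11, 18 of the 162 genes (11.1%) had a stage 12 signal of at least 2000, against 126 of the 300 (42.0%). Against the floor, the stage 12 signals of the 162 genes were at least 4.06-fold to 96.8-fold higher than stage 9 in RNAi, and at least 4.14-fold to 82.6-fold higher in ZH11. All these folds are lower bounds, since the stage 9 signals were at or below the floor. The stage 9 signals had medians of 29.2 in RNAi and 34.8 in ZH11, and signals under the floor have no order.

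Inside the 2-fold window, which the rule set, the ratios of the 162 genes were spread more widely than those of all bright genes. The bright genes include the 162. The genes compared were not matched for signal level, and the part of signal level in the spread was not tested. The median log2 ratio of RNAi over ZH11 at stage 12 was 0.13, with quartiles of -0.18 and 0.45. Over all 10817 genes at the upper level on both stage 12 arrays the median was 0.02, and over the 10295 of them within 2-fold it was 0.02 with quartiles of -0.19 and 0.23. Of the 162 genes, 97 (59.9%) were higher in RNAi, against 52.2% of the 10817 genes and 53.1% of those within 2-fold. At least 1.5-fold higher in RNAi were 29 of the 162 genes (17.9%), against 6.27% of the 10817 and 4.80% of those within 2-fold. At least 1.5-fold lower were 14 (8.64%), against 8.43% of the 10817 and 5.58% of those within 2-fold. Scaling the arrays to a common median brought the 10817 genes to a median log2 ratio of 0.11, and quantile normalization to 0.12. After median scaling 107 of the 162 genes (66.0%) were higher in RNAi, against 64.4% of the bright genes, and quantile normalization gave 66.0% against 64.6%. The shares at least 1.5-fold higher were then 23.5% and 24.1% of the 162 genes, against 7.68% and 8.42% of the bright genes within 2-fold. Under both scalings the share of the 162 genes higher in RNAi lay near that of the bright genes. The direction was checked under both scalings for 44 genes. These were the 30 named genes and family genes off at stage 9, on at stage 12 and over 2-fold apart between genotypes. Of the 44, GRXC10 was the one whose direction turned under a scaling.

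**Figure D2:**
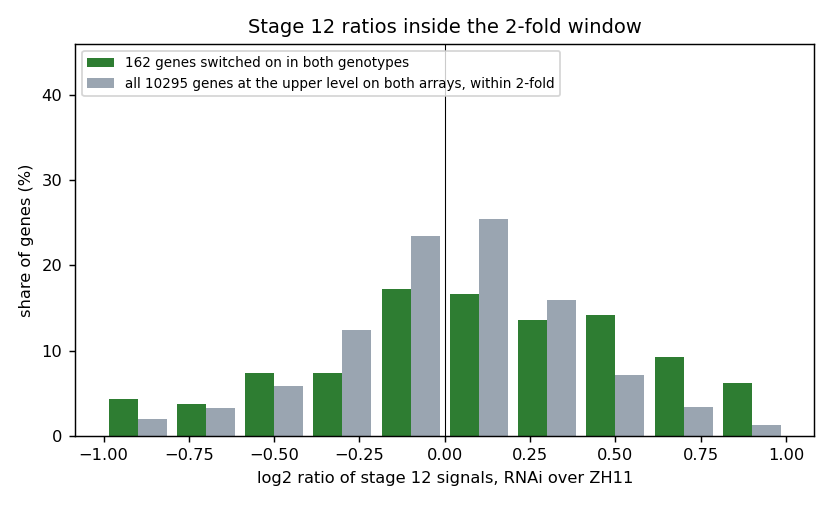
Share of genes, in percent, in each bin of the log2 ratio of stage 12 signals, RNAi over ZH11. Green bars are the 162 genes switched on in both genotypes and grey bars the 10295 bright genes within 2-fold. The green bars are lower in the middle and higher towards both ends, with 29 genes at least 1.5-fold higher in RNAi and 14 at least 1.5-fold lower.

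Of the 162 genes, 30 had a name in the gene table beyond a locus or clone number, and 132 were known by locus number only. This group and the gene families below were put together after the values had been seen, so nothing is read from their counts, and over all genes 0.905% met the rule. Diterpenoid synthesis held 5 of the named genes among 20 measured genes of that kind. On chromosome 4, OsMAS (LOC4335093), KSL4 (LOC4335094) and CYP99A2 (LOC4335096) stand next to each other in the gene order. OsMAS, a dehydrogenase of the last step to momilactone A, had a signal of 638 in RNAi and 421 in ZH11 at stage 12, against 15.6 in RNAi and 12.4 in ZH11 at stage 9. KSL4, which makes the pimaradiene precursor of the momilactones, had 552 in RNAi and 365 in ZH11 at stage 12, against 9.29 in RNAi and 9.35 in ZH11 at stage 9. For CYP99A2, a cytochrome P450 of the same pathway, the signals were 673 in RNAi and 465 in ZH11 at stage 12, against 39.2 in RNAi and 46.1 in ZH11 at stage 9. The 3 neighbours lay close together, at 1.52-fold, 1.51-fold and 1.45-fold higher in RNAi at stage 12.

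CPS4 and CYP99A3, the other measured genes of that block, did not meet the rule. CPS4 (LOC4335090), the synthase of the syn-copalyl diphosphate that KSL4 uses, had 621 in RNAi and 236 in ZH11 at stage 12, against 20.9 in RNAi and 23.6 in ZH11 at stage 9, which was 2.63-fold higher in RNAi. CYP99A3 (LOC4335091) had 540 in RNAi and 264 in ZH11 at stage 12, against 83.0 in RNAi and 111 in ZH11 at stage 9, so it missed the rule at stage 9, by its ZH11 signal at stage 12 and by its 2.04-fold ratio. For OsMAS, KSL4 and CYP99A2 the rule itself fixed the higher signal at stage 12. CPS4 and CYP99A3 were also brighter at stage 12 than at stage 9 on both genotypes' arrays. At stage 12, all 5 measured diterpenoid genes of the chromosome 4 block were brighter in RNAi than in ZH11. LOC4335092, which lies among them, was not analysed here.

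On chromosome 2, CPS2 (LOC9266189) and KSL5 (LOC4329728) are also neighbours. CPS2, which makes ent-copalyl diphosphate for phytoalexins, had 1230.0 in RNAi and 671 in ZH11 at stage 12, against 6.57 in RNAi and 5.29 in ZH11 at stage 9. KSL5, of the kaurene synthase-like family, had 829 in RNAi and 595 in ZH11 at stage 12, against 18.6 in RNAi and 31.5 in ZH11 at stage 9. They were 1.83-fold and 1.39-fold higher in RNAi, and CPS2 passed the 2-fold limit after quantile normalization. CYP71Z7 (LOC4329726), the P450 gene next to CPS2, had 1262 in RNAi and 540 in ZH11 at stage 12, against 18.9 in RNAi and 18.7 in ZH11 at stage 9, and its 2.34-fold ratio put it outside the window. CYP71Z6 (113 in RNAi and 21.5 in ZH11 at stage 12) and CYP76M5 (88.2 in RNAi and 30.2 in ZH11) were off at stage 9 and above the floor at stage 12 in RNAi alone, under the upper level. KSL7, which makes the cassadiene precursor of the phytocassanes, was below the floor in both genotypes at stage 12, against 78.7 in RNAi and 97.0 in ZH11 at stage 9, and CYP76M8 was above the floor on all 4 arrays.

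**Figure D3:**
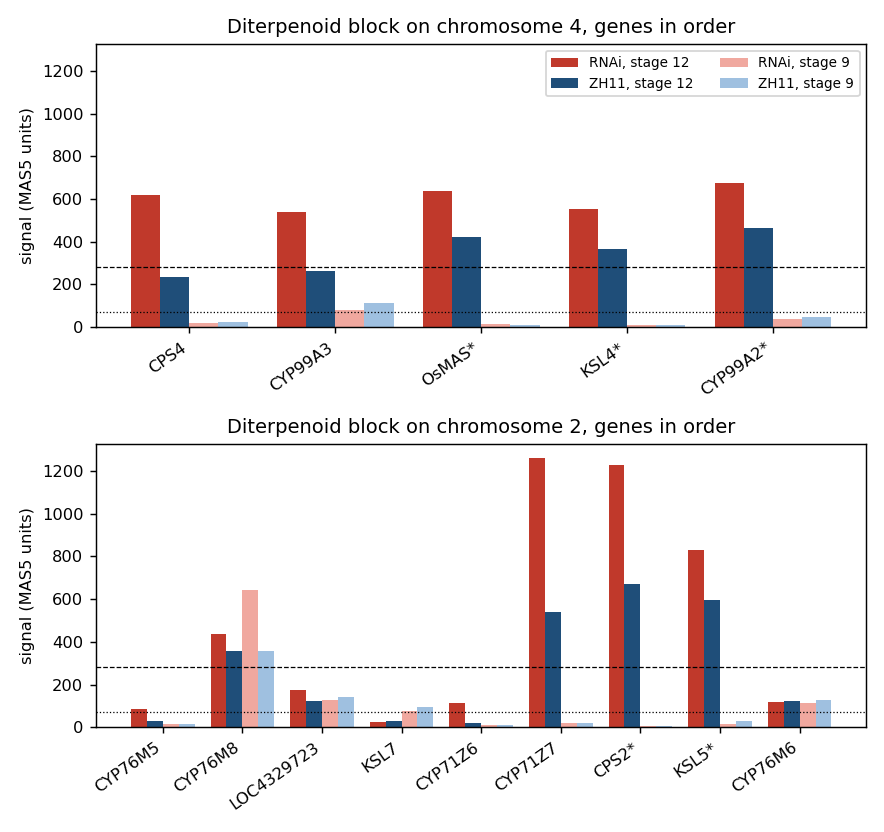
Signals, in MAS5 units on a linear axis from 0, of the measured genes of the diterpenoid blocks on chromosomes 4 and 2 in gene order, with 4 bars a gene for RNAi and ZH11 at stage 12 and at stage 9. Asterisks mark the 5 genes that met the rule, the dotted line the floor of 71 and the dashed line the upper level of 284. On chromosome 4 every RNAi bar at stage 12 is taller than its ZH11 bar, from 540 for CYP99A3 to 673 for CYP99A2.

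Of the other diterpenoid genes, CPS1 (LOC4329013), the synthase of gibberellin precursors, was the one switched on in ZH11 and over 2-fold lower in RNAi, with 232 in RNAi and 4120.3 in ZH11 at stage 12, against 45.0 in RNAi and 38.6 in ZH11 at stage 9. CYP701A8 (LOC4341343), of the kaurene oxidase family, had 2345 in RNAi and 1779 in ZH11 at stage 12, against 128 in RNAi and 75.3 in ZH11 at stage 9, so it missed the rule by its stage 9 signals alone. Upstream of all of them, 1 of the 6 measured genes of the plastid methylerythritol phosphate (MEP) pathway, which supplies the diterpene precursor, met the rule. This gene, DXPS (LOC4342614), of 1-deoxy-D-xylulose 5-phosphate synthase, had 723 in RNAi and 479 in ZH11 at stage 12, against 31.4 in RNAi and 37.3 in ZH11 at stage 9. The second gene of that name (LOC4338768) had 963 in RNAi and 441 in ZH11 at stage 12, against 940 in RNAi and 576 in ZH11 at stage 9. The remaining 4 MEP genes, DXR, ISPF, HDR1 and MCS, were above the floor at stage 9.

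Chitinases contributed 4 of 11 measured genes, beside 0.905% over all genes. Cht4 (LOC4336263) had 3869 in RNAi and 1943 in ZH11 at stage 12, against 12.0 in RNAi and 9.85 in ZH11 at stage 9. Its ratio of 1.99 was the highest of the 162 genes. Cht1 (LOC4342115) had 679 in RNAi and 356 in ZH11 at stage 12, against 23.6 in RNAi and 31.4 in ZH11 at stage 9, which was 1.91-fold higher in RNAi. Cht4 and Cht1 both passed the 2-fold limit, and so left the rule, under median scaling and under quantile normalization. In Cht8 (LOC4349267) the genotypes lay close, with 2407 in RNAi and 2191 in ZH11 at stage 12, against 55.2 in RNAi and 23.4 in ZH11 at stage 9. A second probe set of Cht8 had 2455 in RNAi and 2184 in ZH11 at stage 12, while another had 102 in RNAi and 80.3 in ZH11. Cht9 (LOC4338719) was the one on the other side, with 621 in RNAi and 784 in ZH11 at stage 12, against 5.88 in RNAi and 18.5 in ZH11 at stage 9.

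A further 3 chitinases were off at stage 9 and over 2-fold higher in RNAi at stage 12. Cht5 (LOC4336265), a neighbour in number of Cht4, had 2870.1 in RNAi and 1344 in ZH11, Cht11 had 1193 in RNAi and 300 in ZH11, and Cht10 had 592 in RNAi and 213 in ZH11. Cht6 was 1.54-fold higher in RNAi, with 391.5 in RNAi and 254 in ZH11. Of the 9 chitinases that were off at stage 9, 0 were over 2-fold lower in RNAi at stage 12, against 11.8% of all genes off at stage 9, a share that 9 genes cannot be told from. Cht7 (LOC4338720) was bright on all 4 arrays, with 17959 in RNAi and 17151 in ZH11 at stage 12, against 6464 in RNAi and 10661 in ZH11 at stage 9.

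The germin-like genes GER3, GER2 and GER1, which have successive locus numbers, differed among themselves. GER3 (LOC4344838) met the rule, with 817 in RNAi and 886 in ZH11 at stage 12, against 10.9 in RNAi and 12.7 in ZH11 at stage 9. GER2 had 419 in RNAi and 47.8 in ZH11 at stage 12, and GER1 had 332 in RNAi and 55.8 in ZH11, so that they were at least 5.90-fold and 4.68-fold higher in RNAi. Both were below the floor on the stage 9 arrays. JAMYB (LOC4351131), a jasmonate-inducible MYB transcription factor, went the other way within the window, with 1056 in RNAi and 1625 in ZH11 at stage 12, against 12.6 in RNAi and 15.2 in ZH11 at stage 9. It was 1.54-fold lower in RNAi.

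**Figure D4:**
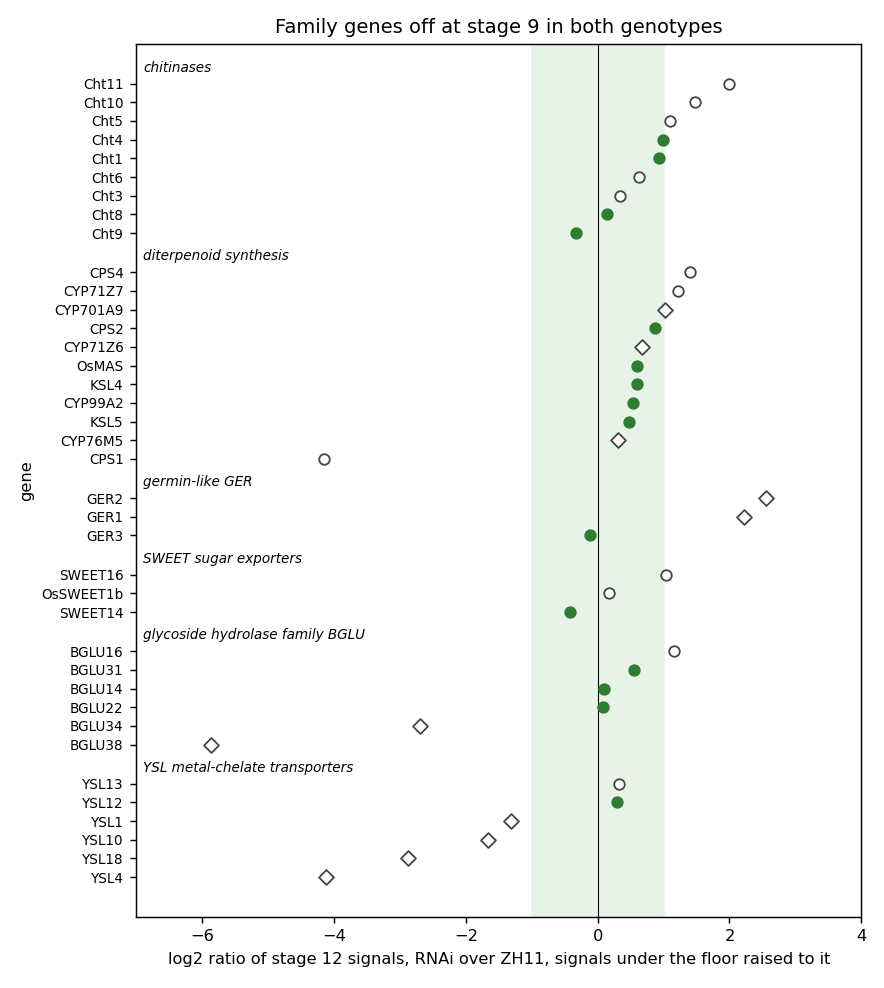
Log2 ratio of stage 12 signals, RNAi over ZH11, for genes of 6 families that were off at stage 9 in both genotypes, with signals under the floor raised to it and genes under it on both arrays left out. Filled points met the rule, open points did not, diamonds are bounds with 1 stage 12 array at or below the floor, and the shaded band is the 2-fold window. The chitinases run from -0.34 for Cht9 to 1.99 for Cht11, while BGLU38 and YSL4 lie at -5.87 and -4.13.

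CSLF2 (LOC4343553), a cellulose synthase-like gene whose family makes the mixed-linkage glucan of grass walls, had 2094 in RNAi and 1711 in ZH11 at stage 12, against 26.5 in RNAi and 26.8 in ZH11 at stage 9. CSLF6, CSLF7, OsCslF8 and CSLH1, the other 4 genes measured in that group, did not meet the rule. SWEET14 (LOC4350572), a sugar exporter, had 391.9 in RNAi and 525 in ZH11 at stage 12, against 38.2 in RNAi and 26.2 in ZH11 at stage 9. Its second probe set also met the rule, with 315 in RNAi and 447 in ZH11 at stage 12. SWEET16 was just past the window at 2.04-fold higher in RNAi, with 652 in RNAi and 319 in ZH11, whereas SWEET5 had 111 in RNAi and 3860.0 in ZH11 at stage 12 and was above the floor at stage 9. CFBP1 (LOC4325071), a fructose-1,6-bisphosphatase of sucrose synthesis, had 325 in RNAi and 299 in ZH11 at stage 12, against 52.8 in RNAi and 50.6 in ZH11 at stage 9. Its other probe set did not meet the rule, with 99.3 in RNAi and 95.9 in ZH11 at stage 12, and was below the floor at stage 9.

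Of 27 BGLU genes, members of the beta-glucosidase family, 3 met the rule, beside 0.905% over all genes. BGLU31 (LOC4347545) had 1357 in RNAi and 927 in ZH11 at stage 12, against 39.2 in RNAi and 47.6 in ZH11 at stage 9. BGLU14 (LOC4336388) had 494 in RNAi and 460 in ZH11 at stage 12, against 21.5 in RNAi and 21.7 in ZH11 at stage 9. BGLU22 (LOC4338560) had 449 in RNAi and 423 in ZH11 at stage 12, against 35.4 in RNAi and 66.3 in ZH11 at stage 9. The family also held 2 genes that were switched on in ZH11 and over 2-fold lower in RNAi, beside 1.68% over all genes. BGLU38 had 41.8 in RNAi and 4141 in ZH11 at stage 12, and BGLU34 had 34.6 in RNAi and 461 in ZH11.

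The metal-chelate transporter family YSL also held genes of both kinds. YSL12 (LOC4336442) had 631 in RNAi and 515 in ZH11 at stage 12, against 38.4 in RNAi and 44.8 in ZH11 at stage 9, while its other probe set was below the floor on all 4 arrays. YSL4 had 24.4 in RNAi and 1241 in ZH11 at stage 12, and YSL18 had 51.1 in RNAi and 524 in ZH11. Both were off at stage 9. Of 15 measured YSL genes 1 met the rule, beside 0.905% over all genes. A further 2 were switched on in ZH11 and over 2-fold lower in RNAi, beside 1.68%. YSL7 was above the floor at stage 9 and in neither class, with 69.35 in RNAi and 8205 in ZH11 at stage 12. YSL1, YSL8 and YSL10, also in neither class, were over 2-fold lower in RNAi at stage 12 too. None of the 15 was over 2-fold higher there. Among 7 measured GRXC glutaredoxins, redox enzymes of plants, GRXC10 (LOC4351046) had 1333 in RNAi and 1379 in ZH11 at stage 12, against 52.1 in RNAi and 47.5 in ZH11 at stage 9. The ratio of GRXC10, 0.967, was below 1 on the deposited signals and above 1 under either scaling. GRXC15 had 152 in RNAi and 555 in ZH11 at stage 12.

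Signalling and regulatory genes among the 162 included 2 of 9 WNK kinases, beside 0.905% over all genes. WNK4 (684 in RNAi and 2561 in ZH11 at stage 12) and WNK6 (73.9 in RNAi and 417 in ZH11) did not meet the rule. Both were over 2-fold lower in RNAi at stage 12, and none of the 9 was over 2-fold higher. WNK7 (LOC4349598) had 1318 in RNAi and 856 in ZH11 at stage 12, against 34.5 in RNAi and 59.9 in ZH11 at stage 9, and WNK8 (LOC4351311) had 877 in RNAi and 709 in ZH11 at stage 12, against 32.1 in RNAi and 58.0 in ZH11 at stage 9. The probe sets of the pair come from 1 sequence cluster, and that of WNK8 carries a name that marks possible cross-matching, so their levels may share signal. A probe set of WNK8 with no such mark also met the rule, at 513 in RNAi and 473 in ZH11 at stage 12. OsRRA14 (LOC4334066), of the type-A response regulators of cytokinin signalling, had 358 in RNAi and 295 in ZH11 at stage 12, against 17.1 in RNAi and 16.2 in ZH11 at stage 9. MPH1 (LOC4341803), a MYB transcription factor linked to plant height, had 428 in RNAi and 358 in ZH11 at stage 12, against 28.1 in RNAi and 38.3 in ZH11 at stage 9. OsC3H54 (LOC4344566), whose name is that of the CCCH zinc finger family, had 1301 in RNAi and 1641 in ZH11 at stage 12, against 20.8 in RNAi and 22.3 in ZH11 at stage 9.

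The last 5 named genes were MAP70.4, PEX11-4, SCAMP4, PXG and OsAsp1. MAP70.4 (LOC4332061), a microtubule-associated protein, had 1815 in RNAi and 1593 in ZH11 at stage 12, against 36.1 in RNAi and 52.1 in ZH11 at stage 9. The other 3 MAP70 genes measured were above the floor on all 4 arrays, the lowest signal being 853. PEX11-4 (LOC4336511), of peroxisome division, had 515 in RNAi and 344 in ZH11 at stage 12, against 38.8 in RNAi and 61.3 in ZH11 at stage 9. SCAMP4 (LOC4333331), a secretory carrier membrane protein, had 567 in RNAi and 506 in ZH11 at stage 12, against 36.3 in RNAi and 48.8 in ZH11 at stage 9, and was the one of 6 SCAMP genes that was off at stage 9. PXG (LOC4336376), named for peroxygenase, had 1562 in RNAi and 1454 in ZH11 at stage 12, against 35.1 in RNAi and 30.9 in ZH11 at stage 9. OsAsp1 (LOC4349962), an aspartic protease, had 564 in RNAi and 334 in ZH11 at stage 12, against 57.3 in RNAi and 45.4 in ZH11 at stage 9. That probe set has a name that marks possible cross-matching, and the other probe set of OsAsp1 was below the floor on all 4 arrays.

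**Figure D5:**
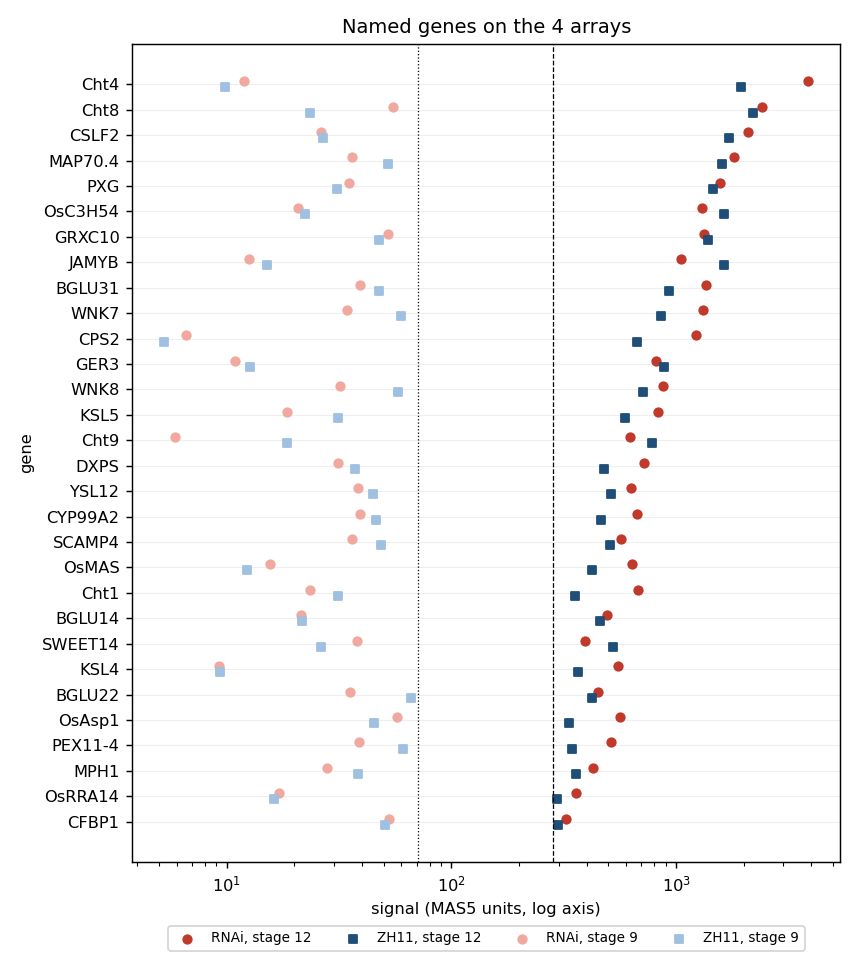
Signals of the 30 named genes on the 4 arrays, on a log axis in MAS5 units, ordered by their mean log2 signal at stage 12. Dark circles and squares are RNAi and ZH11 at stage 12, pale ones RNAi and ZH11 at stage 9, the dotted line the floor of 71 and the dashed line the upper level of 284. Stage 12 signals run from 295 for OsRRA14 in ZH11 to 3869 for Cht4 in RNAi.

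The brightest of the 162 genes have no name beyond a locus number. LOC4327172 had 6870.3 in RNAi and 5866 in ZH11 at stage 12, against 29.3 in RNAi and 24.1 in ZH11 at stage 9, at least 96.8-fold and 82.6-fold higher than at stage 9. LOC4325424 had 6256 in RNAi and 3801 in ZH11 at stage 12, against 33.3 in RNAi and 39.5 in ZH11 at stage 9. LOC4351869 had 4797 in RNAi and 3859 in ZH11 at stage 12, against 26.4 in RNAi and 13.4 in ZH11 at stage 9. These 3 genes were brighter in RNAi, by 1.17-fold, 1.65-fold and 1.24-fold.

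The next 3 lay nearer to equality. LOC4342317 had 3398 in RNAi and 3390.0 in ZH11 at stage 12, against 26.7 in RNAi and 24.6 in ZH11 at stage 9. LOC4331509 had 2758 in RNAi and 3073 in ZH11 at stage 12, against 34.6 in RNAi and 25.1 in ZH11 at stage 9. LOC4343728 had 3034 in RNAi and 2749 in ZH11 at stage 12, against 51.3 in RNAi and 52.5 in ZH11 at stage 9. Cht4 was seventh in this order. The last 3 of the 10 brightest were LOC9272356, LOC4349188 and LOC4336437, with stage 12 signals of 3086, 3281 and 2515 in RNAi and of 2303, 2008 and 2557 in ZH11.

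At the ends of the window lay genes that differed nearly 2-fold between genotypes. After Cht4, the highest ratios of RNAi over ZH11 were those of LOC4329805 (1025 in RNAi and 517 in ZH11 at stage 12), LOC4334903 (1270 in RNAi and 652 in ZH11), LOC4347927 (622 in RNAi and 323 in ZH11) and Cht1. The lowest were those of LOC4338925 (933 in RNAi and 1838 in ZH11), LOC4341299 (885 in RNAi and 1718 in ZH11), LOC4340998 (525 in RNAi and 1017 in ZH11), LOC4352195 (520.0 in RNAi and 973 in ZH11) and LOC4327761 (344 in RNAi and 643 in ZH11). The 5 genes just inside the 2-fold limit differed by 1.94-fold to 1.99-fold. Just outside were LOC4347977 (646 in RNAi and 323 in ZH11) and 4 genes at 2.01-fold to 2.04-fold, among them LOC4347042 (661 in RNAi and 329 in ZH11). At the stage 9 threshold, LOC4343917 was inside with 45.8 in RNAi and 70.8 in ZH11, and LOC4347234 outside with 58.4 in RNAi and 71.4 in ZH11, where the 5 highest inside were 69.3 to 70.8 and the 5 lowest outside 71.4 to 73.2. At the stage 12 threshold, LOC9271754 was inside with 288 in RNAi and 476 in ZH11, and LOC4335831 outside with 322 in RNAi and 282 in ZH11, where the 5 lowest inside were 288 to 295 and the 5 highest outside 271 to 282. The signals on either side of each threshold differ by little, so the edge of the group is set by the rule and not by a gap in the data.

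Lists of expansin, actin cytoskeleton and calcium kinase genes, matched by symbol, held 129 measured genes and 0 of the 162, a count near the 0.905% of all genes that met the rule. Of 11 genes matched as beta-expansins, which loosen cell walls, 2 were switched on in ZH11 at stage 12 and both were over 2-fold lower in RNAi. Likewise over 2-fold lower in RNAi were all of the genes switched on in ZH11 among the next lists, beside 60.4% of all genes switched on in ZH11: 3 of 14 alpha-expansins, 3 of 27 actin cytoskeleton genes, 3 of 20 calcium-dependent protein kinases and 3 of 57 calcium sensors and their kinases. EXPB9 had 56.4 in RNAi and 13529 in ZH11 at stage 12, and CPK2 had 18.9 in RNAi and 3027 in ZH11, while both were off at stage 9. Lists of PP2C phosphatases (55 genes), jasmonate genes (38), heat shock genes (45), photosynthesis genes (9), RAC/ROP GTPases (10), lipid transfer proteins (7) and MPK, RLCK, RLK and SAPK kinases and receptors (27) held no gene that was off at stage 9 and switched on in ZH11. The last of these lists was matched by those symbols only and left out other kinases, among them WNK7 and WNK8, which met the rule. Of 30 sugar transporters, invertases and hexokinases 1 met the rule (SWEET14), as did 1 of 33 cellulose synthase and COBRA genes (CSLF2), 1 of 96 transcription factors matched by symbol (MPH1) and 1 of 76 ion transporters (YSL12). The match by symbol missed JAMYB, which also met the rule. With 0.905% of all genes meeting the rule, a single gene is too few to tell these lists from the rest. The same 4 lists held genes over 2-fold lower in RNAi, namely MST5 (19.0 in RNAi and 1767 in ZH11), CSLD5 (below the floor in RNAi and 389 in ZH11), MADS23 (39.2 in RNAi and 321 in ZH11) and 3 ion transporters, among them HAK26 (61.1 in RNAi and 1439 in ZH11). In 3 of them genes were switched on in RNAi and over 2-fold higher, namely SWEET16, HOX24 (2543 in RNAi and 954 in ZH11), HAK16 (709 in RNAi and 278 in ZH11) and AMT3-2 (730.4 in RNAi and 360.4 in ZH11). Among 32 aquaporins, 15 starch genes and 6 LEA and dehydrin genes, 1 gene each was switched on in ZH11 and over 2-fold lower in RNAi, and none met the rule.

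The genes were spread over all 12 chromosomes. They made up from 0.397% of the genes measured on chromosome 5 (6 of 1510) to 1.59% on chromosome 4 (25 of 1569), and the largest absolute number was on chromosome 4. In the order of protein-coding genes of the RefSeq annotation, 27 of the 162 genes (16.7%) lay within 5 places of another of them, in 13 groups. For the genes over 2-fold lower in RNAi the share was 49 of 298 placed genes (16.4%). Directly adjacent were 5 of the 162 genes (3.09%) and 19 of the 298 (6.38%). A larger set has more neighbours to meet, and no share was computed for sets of equal size. Nothing is therefore read from likeness or difference between these shares. The 5 were the OsMAS, KSL4 and CYP99A2 run and the CPS2 and KSL5 pair. Another group joined DXPS with LOC4342616, 3 places away, which had 752 in RNAi and 400 in ZH11 at stage 12, against 21.5 in RNAi and 22.01 in ZH11 at stage 9. On chromosome 11, LOC4349945 and LOC4349947 had 1417 and 310 in RNAi and 1387 and 299 in ZH11 at stage 12, so these neighbours differed in level and shared ratios close to 1.

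Gene span, which the rule did not use, was short in both groups of late genes. The median distance from the first to the last base of a gene in the annotation was 2405 bases for the 162 genes, 2379 bases for the 300 genes over 2-fold lower in RNAi, and 3526 bases for all 17905 genes. The quartiles were 1411 and 4274 bases for the 162 genes and 2195 and 5203 bases for all genes.

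Other probe sets of the same genes gave mixed readings. Of the 162 genes, 133 were read by 1 probe set, so that nothing on the arrays checks them, and 29 had several. These 29 genes had 35 further probe sets, of which 7 met the rule, each for another gene. They belonged to Cht8, SWEET14, WNK7, WNK8, LOC4331443, LOC4337100 and LOC4343479. For Cht8, SWEET14, WNK7, WNK8 and LOC4337100 the further probe set comes from the same sequence cluster as the one used, so the readings may share signal. Those of LOC4331443 and LOC4343479 have names that mark possible cross-matching. In 9 genes a further probe set was at least 2-fold higher at stage 12 in both genotypes, and in 20 none was. Of the 35 probe sets, 16 were at or below the floor on all 4 arrays. For LOC4332814 the further probe set went the other way, with 61.3 in RNAi and 63.7 in ZH11 at stage 12, against 119 in RNAi and 141 in ZH11 at stage 9, while the probe set that met the rule had 876 in RNAi and 747 in ZH11 at stage 12. For 17 genes the probe set that met the rule has a name that marks possible matches to other transcripts, of the same gene or of other genes.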

How the data were processed

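Total RNA of spikelets was labelled with biotin and hybridised to Affymetrix rice arrays, 1 per group, per the labels' protocols. The deposited intensities are linear, with 1 signal for each probe set on an array. MAS5 is the one tool named, per the submitters' processing notes, and no source used here gives its version, scaling target or detection calls. The table held 57381 probe sets, 123 of them controls. The platform annotation gave 1 gene for 22436, several for 95 and none for 34727. The 17905 genes were all found in the RefSeq table of assembly ASM3414082v1, used for names, chromosomes, gene order and gene span only. The build behind the array is not given, so no coordinates are printed. A gene was read by its brightest probe set, taken by mean log2 signal.

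Signals were used as deposited, with no further normalization. Where folds are called, signals under 71 were raised to 71, and a fold against such a signal is a bound. Shares of genes describe these arrays, and no test was run. Calculations used Python 3.11.15 with pandas 2.3.3, numpy 2.4.6 and matplotlib 3.10.9. Genes were named by the rule that took all members with a name, those of the gene lists, the 10 brightest and the 5 at each end of the ratio. The members, lists and comparisons were chosen with earlier results of these data known, and the 13 families by name were put together after the values were seen. Alternatives covered the thresholds, the scaling and the choice of probe set. Promoter motifs and protein sequences were not analysed here.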

Additional observations from a re-analysis of the deposited data

How the results depend on the processing

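The number of genes that met the rule ranged from 119 to 189 over 9 alternatives, within 1.5 times the 162 reported. Scaling to a common median kept 144 of the same genes and added none, and quantile normalization kept 133 and added none. As a share of genes switched on in ZH11, 32.6% as reported, the genes came to 37.8% with both thresholds halved, 23.9% within 1.5-fold and 38.0% within 3-fold. The narrower and wider windows admit fewer and more genes by construction, and the cause of the change on halving was not tested. The share stayed within its exact 95% binomial interval of 28.5% to 36.9%, which covers the counting of genes only, under the other 5 alternatives. The median log2 ratio of RNAi over ZH11 at stage 12, 0.13 as reported, was 0.23 with arrays scaled to a common median, 0.24 after quantile normalization and 0.13 on log2 of signal plus 16. It was -0.043 over the second brightest probe sets of the 29 genes that have several, which are a part of the 162. Of the 35 further probe sets of these genes, 16 were at or below the floor on all 4 arrays, where signals have no order. No direction is therefore read from that value, and the cause of the change was not tested. The 7 genes seen again by a further probe set became 9 when a signal at least 2-fold higher at stage 12 in both genotypes was enough. No leave-one-out value could be had with 1 array a group. No paired analysis was possible because each group is 1 array.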

Other observations

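Probe sets with no annotated gene were left out of the report. Of these 34727, 278 had signals of 71 or less in both genotypes at stage 9 and were at the upper level in ZH11 at stage 12. Among them 69 (24.8%) met the same rule as the 162 genes and 198 were over 2-fold lower in RNAi. Of the 69, 47 had a higher stage 12 signal in RNAi than in ZH11, with a median log2 ratio of 0.24.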
